A study of Saccharomyces cerevisiae with 4 samples.

Results

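Acetylation of lysine 16 on histone H4 (H4K16ac) was described along the genome of wild-type (WT) budding yeast, Saccharomyces cerevisiae, from every interval of the nucleosome table for WT cells, 60557 listed nucleosomes. The table stands for 2 of the 4 libraries of the series, both labelled WT, and the libraries from nhp6ab cells were not used here. The WT cells were taken from exponential growth in YPD, a rich medium with glucose, and fixed with formaldehyde, and their sonicated chromatin was precipitated with a Santa Cruz antibody against H4K16ac. The labels name no strain background, mating type or further treatment. Both WT libraries share 1 count column, so the spread between them cannot be given, no test was made, and the Poisson intervals given for gene levels cover counting error only.

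H4K16 is acetylated in yeast mainly by Sas2 of the SAS-I complex and by Esa1 of the NuA4 complex, and it is deacetylated by Sir2. The residue lies in the part of the H4 tail that contacts the neighbouring nucleosome and that binds the silencing protein Sir3. The acetylated form is spread over most of the expressed genome, and it is known to be depleted in silent chromatin next to telomeres.

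The table held 26526939 counts, with a median of 442 per listed nucleosome and quartiles of 356 and 522. A level is given as a count divided by that median, so 1 marks the typical listed nucleosome. Values with non-overlapping or 160-bp intervals only, or with counts per bp, were instead divided by the median of that setting. They are therefore not on the same scale as the main values. The central 98% of nucleosomes had levels from 0.285 to 1.66, and 58.4% lay between 4/5 and 5/4 of the median. Counts varied with a coefficient of variation of 32.9% (28.7% without the outlying chromosome III segment and 2 ADE2 nucleosomes described below), against a counting error of 4.76% at the median. A level of 0.5 or less was seen for 3390 nucleosomes, 5.60% of the table. Neither an input nor a total-H4 library was used here, so fewer nucleosomes, less chromatin recovered, fewer DNA copies and less acetylation per nucleosome cannot be told apart in any level below. Counts also moved with the width of the listed interval: the median level was 0.787 for the 9291 intervals of 120 bp and 1.09 for the 34894 intervals of 160 bp, and the Spearman correlation of count and width was 0.407. Scaled to 160 bp the same classes had median levels of 1.05 and 1.09. Of the intervals, 41.1% overlapped the next one, and shared reads would then enter more than 1 count. Positions where the table lists nothing have no value here, and they were not read as 0.

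A segment of chromosome III and a single gene stood apart from the rest of the table. The 398 nucleosomes listed between 15 and 85 kb on chromosome III had a median level of 2.06, whereas the other 1136 on that chromosome had 1.02. Of the 217 nucleosomes at a level of 2 or more, 212 lay in this segment and 5 elsewhere. The highest counts of the table belonged to 2 nucleosomes in ADE2 (YOR128C, chromosome XV, 564476 to 566191), which encodes an enzyme of purine synthesis. Those nucleosomes had 14328 and 4069 counts, levels of 32.4 and 9.21. The other 9 nucleosomes of the ADE2 window had between 306 and 771 counts, a mean level of 1.16. What sets the segment and the ADE2 nucleosomes apart was not tested. The counts of high and low genes and the chromosome ratio are given with and without them, and genes of the segment are marked as such where they end the range of a list.

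For genes, the level is the mean count over the nucleosomes whose midpoint lay in the open reading frame (ORF) or in the 500 bp before its start, divided by 442. A gene was measured when at least 3 nucleosomes were listed in this window, which held for 5816 of 6418 annotated genes. No nucleosome was listed for 249 genes, and 353 had 1 or 2. The median gene level was 1.03, with quartiles of 0.906 and 1.15, and 90% of genes lay between 0.642 and 1.33. A typical measured gene rested on 9 nucleosomes and about 4269 counts, with an exact Poisson 95% interval of ±3.01% of its level. A level of 5/4 or more was called high, which held for 601 genes (10.3%), and a level of 4/5 or less was called low, which held for 817 genes (14.0%). The whole counting interval lay past the threshold for 430 high and 692 low genes. Reads counted in more than 1 overlapping nucleosome would make these counting intervals too narrow, which was not tested. With non-overlapping intervals only, which measure fewer genes, 394 genes were high and 529 low, and with 160-bp intervals only 366 and 698. Between genes the coefficient of variation was 22.7%, or 20.0% without the segment and ADE2, and within a gene it was 20.4% at the median, so nucleosomes of one gene differed about as much as genes did.

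The most extreme genes belonged only in part to few groups. A level of 0.5 or less was found for 93 genes, of which 82 were protein coding, against 5653 of all 5816 measured genes. Cytosolic ribosomal proteins are encoded by 23 of the 93, against 130 of the 5816. With ribosome biogenesis, glycolysis, elongation factor and tRNA genes added, 33 of the 93 were covered. A level of 1.5 or more was found for 59 genes, of which 35 lay in the chromosome III segment, and a level of 2 or more for 29 genes, 28 of them in the segment and the other being ADE2. Of the 41 measured genes in the segment, 40 were high. Without the segment and the 2 ADE2 nucleosomes, 583 genes were high and 811 were low. Levels in that setting were divided by the median of the nucleosomes kept, not by 442.

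The 10 lowest gene levels belonged to genes of different kinds. The lowest was YFR057W at 0.206 (interval 0.186 to 0.229), an ORF 0.553 kb from the end of chromosome VI, with 101, 61, 91 and 112 counts on its 4 nucleosomes. YCL075W, 2.13 kb from the left end of chromosome III, stood at 0.244. UTH1 (YKR042W, chromosome XI, 519527 to 520624), which encodes a protein of the cell wall and mitochondria, had 117, 67, 93, 65, 71, 145 and 163 counts from its upstream sequence to its 3′ end, a level of 0.233 (0.216 to 0.251). All 7 of these nucleosomes lay below the table median of 442. TEF2, which encodes translation elongation factor EF-1 alpha, stood at 0.247, from 3 upstream nucleosomes with 112, 77 and 139 counts and none listed in the ORF. GCN4, the transcriptional activator of amino acid synthesis genes, had 95, 85, 86, 171 and 167 counts and a level of 0.273 (0.252 to 0.296). PDR5 (YOR153W, chromosome XV, 619840 to 624375), the main drug efflux pump of the plasma membrane, was low over the longest distance: its 34 nucleosomes had 42 to 269 counts, none reaching the table median, and its level was 0.283 (0.274 to 0.291). The remaining genes were the ORF YLR112W at 0.263, the small nucleolar RNA genes SNR44 at 0.211 and SNR191 at 0.274, and the tRNA gene YNCK0007W at 0.216. SNR44 lies within RPS22B, so both genes share nucleosomes.

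Apart from ADE2 at 4.73, the 10 highest gene levels all lay in the chromosome III segment. They were RNQ1 at 2.94, STE50 at 2.92, BIK1 at 2.90, ADF1 at 2.87, MXR2 and GRX1 both at 2.82, FYV5 at 2.79, YCL049C at 2.75 and MGR1 at 2.59. The 10 nucleosomes of RNQ1, which encodes a prion protein, had 1076 to 1528 counts each. These genes have unrelated roles: STE50 encodes an adaptor of the pheromone pathway, BIK1 a microtubule-binding protein and GRX1 a glutaredoxin. The next nucleosomes by height after the ADE2 pair also lay there, with 1801, 1698 and 1637 counts at KRR1, APA1 and LSB5, whose gene levels were 2.48, 2.21 and 2.32. Outside the segment and ADE2, the highest levels were far closer to the bulk. The ORF YGL235W stood at 1.66, MGR2 and RDS3 at 1.64, SNR58 at 1.61, and OM45, BOL1, BOL3 and ESS1 at 1.59. These genes were chosen after their values were seen. BOL1 and BOL3 are neighbours whose windows hold the same 5 nucleosomes, so their levels are 1 value. MGR2 encodes a part of the mitochondrial import machinery, RDS3 a splicing factor, OM45 a protein of the mitochondrial outer membrane and ESS1 a prolyl isomerase. OM45 (YIL136W, chromosome IX, 93619 to 94800) had 469, 727, 579, 682, 929, 861, 878, 761, 685 and 477 counts along its window. Its highest nucleosomes lay inside the ORF and its lowest at both ends of the window.

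Gene lists were then set beside all measured genes. Of 33 lists with measured members, 8 had a median below the lower quartile of all genes (0.906), none had a median above the upper quartile (1.15), and 25 lay between. The 8 were the 60S and the 40S ribosomal proteins, translation elongation factors, other RNA polymerase III genes, glycolysis and fermentation, ribosome biogenesis, tRNA genes and hexose transporters. Lists were compared by their medians and counts only, and of all measured genes 14.0% were low and 10.3% high. The place of some lists depended on the processing. Hexose transporters stayed below the lower quartile in 5 of 11 alternatives, with medians from 0.806 to 1.04. The other RNA polymerase III genes had a median of 1.09 with non-overlapping intervals alone, and tRNA genes 0.976 with medians per gene. Elongation factors ranged from 0.390 with nucleosomes in a single gene window to 0.985 in the ORF alone, the latter between the quartiles.

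**Figure D1:**
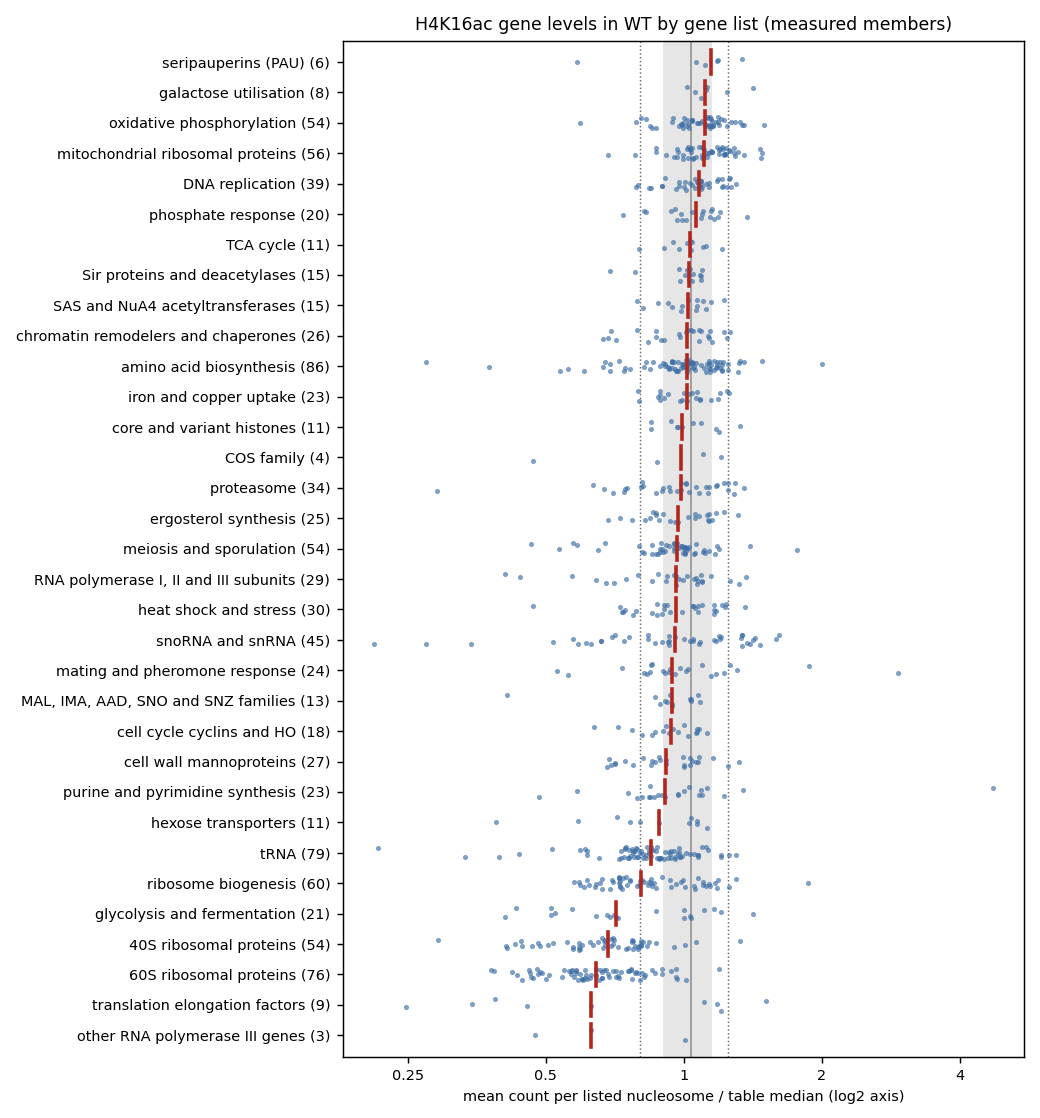
Gene level (mean count per listed nucleosome over the table median, log2 axis) of each measured gene of 33 lists, with the number measured in brackets. Red bars are list medians, the grey band spans the quartiles of all measured genes (0.906 to 1.15) with their median as a line, and dotted lines mark 4/5 and 5/4; the ribosomal protein lists sit almost wholly left of the band.

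Genes of the cytosolic ribosome held the most low members of the lists. Of 137 such genes 130 were measured, and 104 of these (80.0%) were low, against 14.0% of all genes. The 60S list had a median of 0.643, with 62 of 76 low and none high, and ranged from RPL27A at 0.379 to RPP1A at 1.19. The 40S list had a median of 0.682, with 42 of 54 low and 1 high, and ranged from RPS22B at 0.292 to RPS28A at 1.33. RPS22B had 129, 55, 99, 83, 100, 201 and 235 counts along its window. RPS28A had 307, 808 and 646 counts, so its first nucleosome lay below and the other two above the median of the table. Most ribosomal protein genes exist as duplicated copies, and reads in near-identical copies may be assigned to either, so single copies are uncertain. Over 52 pairs with both copies measured, the higher copy exceeded the lower by a median factor of 1.26, and 12 pairs differed by more than 1.5. The widest differences were between RPS22A at 0.794 and RPS22B at 0.292, between RPL27B at 0.896 and RPL27A at 0.379, and between RPL2A at 0.783 and RPL2B at 0.385. The 22 single-copy genes had a median of 0.656 and the 108 duplicated ones 0.663.

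Other genes of translation and ribosome assembly were in part low. Of 9 measured elongation factor genes 5 were low, with a median of 0.628, and in the ORF alone the median was 0.985, with 3 low and 3 high. They ranged from TEF2 at 0.247 to ANB1 at 1.51, which encodes the form of the factor eIF5A made when oxygen is scarce. YEF3, which encodes the elongation factor eEF3, had 66 to 303 counts on 26 nucleosomes and a level of 0.346. Ribosome biogenesis genes, which encode pre-rRNA processing and assembly factors, had a median of 0.805, with 29 of 60 low and 3 high. Their lowest member was NOP56 at 0.576, a core protein of box C/D snoRNPs, and their highest, RRP7 at 1.87, lies in the chromosome III segment. RNA polymerase subunit genes had a median of 0.962, between the quartiles of all genes, and 8 of 29 (27.6%, against 14.0% of all genes) were low. RPO21, which encodes the largest subunit of RNA polymerase II, was the lowest at 0.406 (0.396 to 0.417), and its 33 nucleosomes had 99 to 355 counts. RPB9 was the highest of these at 1.37.

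Among genes of sugar use, glycolytic genes were mostly low and genes of the galactose list were not. Glycolysis and fermentation genes had a median of 0.711, with 12 of 21 low and 1 high. CDC19, which encodes pyruvate kinase, was lowest at 0.406, with 115 to 274 counts on 12 nucleosomes, and GLK1 was highest at 1.41, inside the chromosome III segment. Several major glycolytic genes, named after their values were seen, spread widely: TDH3 stood at 0.430, ADH1 and FBA1 both at 0.512, ENO2 at 0.570, PDC1 at 0.711, ENO1 at 1.03 and PGK1 at 1.00. Hexose transporter genes had a median of 0.880, with 4 of 11 low. The low-affinity transporter gene HXT3 was lowest at 0.388, and the galactose permease gene GAL2, also on this list, was highest at 1.12. The 8 genes of the galactose utilisation list had a median of 1.11, with none low and 1 high. They ranged from GAL11, a Mediator subunit gene, at 1.01 to GAL3 at 1.41. GAL1, GAL7 and GAL10, the enzymes of the pathway, which are repressed in glucose, stood at 1.09, 1.05 and 1.11.

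Genes of the mitochondrial ribosome and of oxidative phosphorylation had medians above that of all genes (1.03) and below the upper quartile. Oxidative phosphorylation genes had a median of 1.11, with 6 of 54 high (11.1%, near the 10.3% of all genes) and 2 low, from QCR6 at 0.592 to COX9 at 1.49. Mitochondrial ribosomal protein genes had a median of 1.11, with 10 of 56 high (17.9%) and 2 low. That compares with 104 of 130 low among genes of the cytosolic ribosome. MRPL20 was the highest at 1.48, with 492, 671, 601, 692, 690 and 775 counts, all above the table median, and MRPL27 the lowest at 0.681. COX9, which encodes a subunit of cytochrome c oxidase, had 713, 470, 704, 691 and 720 counts. Tricarboxylic acid cycle genes had a median of 1.03, with 1 of 11 low, from ACO1 at 0.797 to FUM1 at 1.21.

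Genes of chromatin itself stood near the centre. The 15 genes for SAS-I and NuA4 subunits had a median of 1.02, with SAS5 at 0.789 the only low member and EAF5 at 1.22 the highest. The 15 genes for Sir proteins and deacetylases had a median of 1.03, with 2 low (13.3%, near the 14.0% of all genes) and none high. HST1 was lowest at 0.689, and SIR3, which encodes the silencing protein that binds the H4 tail, was highest at 1.09. SIR3 was flat along its length, with 429 to 550 counts on all 17 nucleosomes. Remodeler and histone chaperone genes had a median of 1.02, from RSC1 at 0.664 to HIR1 at 1.26, with 5 of 26 low (19.2%). The 11 histone genes had a median of 0.993, with none low, from CSE4 at 0.846 to HTA1 at 1.33.

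The medians of lists for biosynthesis, stress and the life cycle lay between the quartiles of all genes. Amino acid synthesis genes had a median of 1.02, with 13 of 86 low (15.1%, near the 14.0% of all genes) and 6 high, between GCN4 and HIS4, which lies in the segment and had a counting interval of 1.97 to 2.04. Proteasome genes had a median of 0.986, with 7 of 34 low (20.6%) and 3 high (8.82%). The lowest entry of that list was RPN4 at 0.289, the transcription factor that controls the proteasome genes, with 69 to 342 counts on 15 nucleosomes, and RPN14 was highest at 1.35. Purine and pyrimidine synthesis genes had a median of 0.911 and ranged from IMD4 at 0.483 to ADE2. Heat shock and stress genes had a median of 0.960, from HSC82 at 0.469 to HSP30 at 1.36, with 7 of 30 low (23.3%). Ergosterol synthesis genes lay between ERG11 at 0.684 and ERG26 at 1.31, around 0.968. DNA replication genes had a median of 1.08, from MCM5 at 0.786 to RFA3 at 1.30. Phosphate response genes had 1.06, from SPL2 at 0.735 to PHO85 at 1.37. Iron and copper uptake genes had 1.02, from FIT1 at 0.793 to FRE4 at 1.26. Meiosis and sporulation genes, silent in growing cells, had a median of 0.965, from SPO19 at 0.465 to SPS22 at 1.77 in the segment. Low members were 7 of 54 (13.0%, near the 14.0% of all genes). Mating and pheromone genes had a median of 0.944, from FAR1 at 0.529 to STE50. Cyclin genes had 0.937, from CLB2 at 0.637 to SIC1 at 1.12. Cell wall mannoprotein genes had 0.914, with 7 of 27 low, from TOS6 at 0.679 to PIR5 at 1.32. The 6 lists of ribosomal proteins, elongation factors, ribosome biogenesis, glycolysis and tRNA genes together held 180 of the 817 low genes (22.0%). The measured members of these lists numbered 76 (60S), 54 (40S), 9, 60, 21 and 79 in turn for the other lists, of 5816 measured genes. In each of these lists the share of low members was larger than the 14.0% of all genes. All 6 were among the 8 lists with medians below the lower quartile of the same levels, so this larger share is no separate result. It was smallest for tRNA genes, with 30 of 79 low, and largest for the 60S list, with 62 of 76 low. A further 535 low genes were on no list. How many measured genes were on no list is not given here, so that number has no share beside it.

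Genes transcribed by RNA polymerase III and small nucleolar RNA genes are short, and few nucleosomes were listed on them. Of 275 tRNA genes, 39 had no listed nucleosome in the window, 157 had 1 or 2 and 79 were measured. The measured ones had a median of 0.847, with 30 low and 2 high. Over all 275 tRNA genes, measured or not, nucleosomes listed upstream of the gene and over it differed strongly. The 321 nucleosomes listed within 500 bp upstream of a tRNA gene had a median level of 1.00, and the 173 listed over a tRNA gene itself had 0.274. The same contrast stood at 0.956 and 0.255 with counts taken per bp, and at 0.943 and 0.264 with non-overlapping intervals only. Of the other RNA polymerase III genes 3 were measured, from RPR1, the RNA of RNase P, at 0.473 to RNA170 at 1.01. Small nucleolar and nuclear RNA genes spread widely, with 14 of 45 low (31.1%) and 11 high (24.4%) around a median of 0.958. Families near chromosome ends were poorly covered: 4 of 12 COS genes and 6 of 24 seripauperin (PAU) genes were measured, and no nucleosome was listed for any of the 8 Y′ element helicase genes. COS genes ran from COS6 at 0.469 to COS9 at 1.20, and PAU genes from PAU10 at 0.585 to PAU23 at 1.34. The MAL, IMA, AAD, SNO and SNZ families ran from AAD3 at 0.411, which lies 1.21 kb from the right end of chromosome III, to SNZ1 at 1.08.

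Around ORFs, levels dipped upstream of the start and past the end, and were highest directly after the start. In bins of 200 bp, the median level over all ORFs was 1.06 from 600 to 400 bp upstream and 0.962 in the last 200 bp before the start. It was 1.14 in the first 200 bp of the ORF and then lower at each step, 1.09, 1.04 and 1.01 in the following bins, reaching 0.939 from 1800 to 2000 bp. Later bins hold only longer ORFs, 5422 in the first 200 bp and 1266 from 1800 to 2000 bp, so the bins do not compare the same genes. Nucleosomes in the first 500 bp of ORFs had 1.11 times the level of those upstream. At a finer scale of 50 bp, the level was 0.826 from 150 to 100 bp upstream, and 1.16 and 1.17 in the bins at 0 to 50 bp and 150 to 200 bp inside the ORF. The number of listed nucleosomes also varied: per 1000 ORFs, 144 had a midpoint from 150 to 100 bp upstream, 125 from 100 to 50 bp upstream, where the level was 0.963, 378 from 0 to 50 bp and 396 from 150 to 200 bp inside. At the 3′ end, the level was 1.07 from 400 to 200 bp before the ORF end, 0.860 in the first 200 bp past it and 1.05 from 400 to 600 bp past it. Of every 1000 ORFs, 92.3 had a nucleosome listed 50 to 100 bp past their end.

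**Figure D2:**
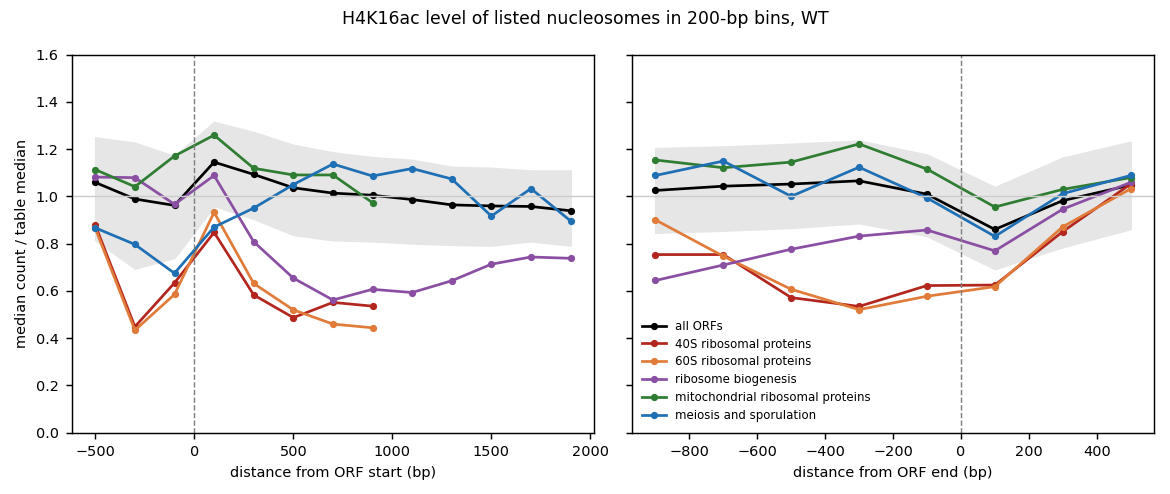
Median level of listed nucleosomes in 200-bp bins around ORF starts (left) and ORF ends (right), for all ORFs and 5 gene lists; points sit at bin centres and the grey band spans the quartiles of all ORFs. Both ribosomal protein curves dip upstream, reach 0.847 and 0.932 in the first 200 bp, drop again inside the ORF and meet the other curves 400 to 600 bp past its end; ribosome biogenesis genes lie near all ORFs upstream and below them inside the ORF.

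The low gene lists differed in where along the gene they were low. Medians by position take the nucleosomes of every list member, also of members with fewer than 3 listed nucleosomes, which have no gene level here. Ribosomal protein genes were low on both sides of their start. The 40S list had a median of 0.538 upstream, 0.847 in the first 200 bp and 0.523 from 400 to 1000 bp, and the 60S list had 0.534, 0.932 and 0.480. All ORFs had 0.998, 1.14 and 1.02 in the same places. The dip and recovery stood in the 40S list also with counts per bp, at 0.577, 0.847 and 0.497. Ribosome biogenesis genes had levels near those of all ORFs upstream and at the start, 1.07 and 1.09, and 0.618 from 400 to 1000 bp. NOP56, in the plot of single genes, shows this shape, with 420, 584 and 473 counts on its first 3 nucleosomes and 109 to 162 on its last 6. Proteasome genes had 1.07 upstream, 1.27 in the first 200 bp and 0.814 from 400 to 1000 bp. RNA polymerase subunit genes had 1.03, 1.16 and 0.676.

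Some other lists had less upstream than from 400 to 1000 bp, by a wider margin than all ORFs, which had 0.998 and 1.02. Meiosis and sporulation genes had a median of 0.787 upstream, 0.870 in the first 200 bp and 1.11 from 400 to 1000 bp. Hexose transporter genes had 0.561, 0.724 and 1.06 in these places. Tricarboxylic acid cycle genes had 0.670 upstream and 1.07 from 400 to 1000 bp. Glycolytic genes had 0.507, 0.747 and 0.661, and these values moved with the intervals kept: 160-bp intervals alone gave 0.469, 1.01 and 0.881, and non-overlapping ones 0.818, 0.721 and 0.554. Genes of the mitochondrial ribosome kept the order of all ORFs, at 1.07, 1.26 and 1.08, on or above all ORFs at each place. The galactose genes had 0.973, 1.18 and 1.26, with their highest levels inside the ORF.

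**Figure D3:**
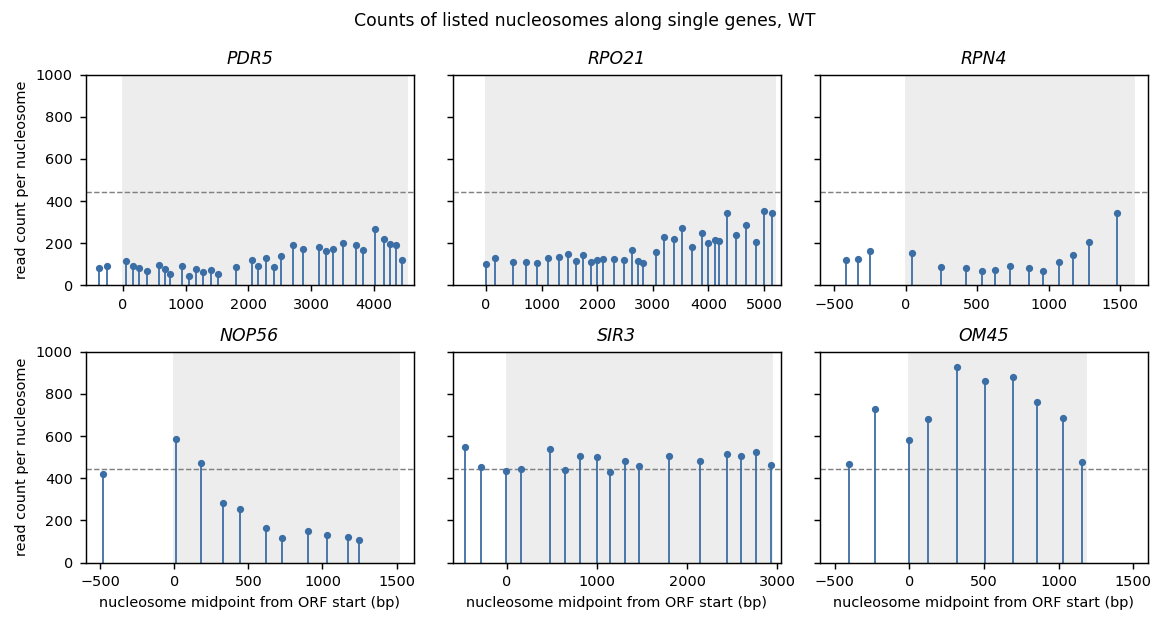
Read counts of single listed nucleosomes (points with stems) by distance of the midpoint from the ORF start in 6 genes; the shaded span is the ORF, the dashed line the table median of 442, and x axes differ in length. PDR5, RPO21 and RPN4 stay below the line throughout, NOP56 crosses it near the start, SIR3 stays close to it and OM45 lies above it.

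Within single long genes, the change from start to end was small at the median and large in a minority. Of 2135 ORFs of at least 1500 bp with nucleosomes listed at both ends, 1284 (60.1%, exact Clopper-Pearson 95% interval 58.0% to 62.2%, which treats ORFs as independent) had a lower mean count in the last than in the first 500 bp. The median ratio of last to first was 0.947, with quartiles of 0.822 and 1.11. The share was 53.2% with counts per bp and 55.1% with 160-bp intervals only. In 108 ORFs the first 500 bp exceeded the last by 1.5 times or more, and in 90 the last exceeded the first by as much. Of 2026 ORFs with 2 or more nucleosomes at each end, PTK1, which encodes a protein kinase, had the steepest drop, from 1.38 to 0.361. Next were NOP56, from 0.900 to 0.274, and NOP58, from 0.961 to 0.313. NOP56 and NOP58 encode partner proteins of the same snoRNPs. The steepest climbs were in YOR1, a drug efflux pump, from 0.196 to 0.612, in EAF1, a NuA4 subunit, from 0.388 to 1.13, and in INA1, from 0.285 to 0.726. In the gene lists the median ratio of last to first was 0.841 for ribosome biogenesis genes and 1.46 for hexose transporters. Lower at the end were 18 of 31 and 3 of 10 of these ORFs, the former near the 60.1% of all long ORFs.

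Some low nucleosomes stood in long rows. Runs of 8 or more listed nucleosomes at a level of 0.5 or less, with gaps of at most 500 bp, numbered 44 and held 492 nucleosomes. Of these runs 43 lay more than 10 kb from a chromosome end and 1 lay nearer. Few nucleosomes were listed that near an end, 449 of 60557, so the count of 43 does not show that low runs avoid ends. The longest covered PDR5, with 31 nucleosomes over 4652 bp and a median level of 0.208. The next, with 19 nucleosomes each, were at RPO21 and within 10 kb of the left end of chromosome III. Further runs of 17, 17, 16, 15, 15 and 14 nucleosomes lay on YOR1, YEF3, RPB2, FAS1, RPN4 and RPG1. These encode a drug efflux pump, an elongation factor, a large subunit of RNA polymerase II, a fatty acid synthase subunit, a transcription factor and a subunit of translation initiation factor eIF3. Some genes were low over a part of their length. RPB2 had 0.959 upstream, 0.238 from 400 to 1000 bp and 0.771 in its last 500 bp, and FAS1 had 0.439, 0.271 and 0.920. The runs touched 45 ORFs, and the genes named here were chosen after their values were seen.

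From 500 bp upward, longer genes had lower levels. ORFs of 500 to 1000 bp had a median gene level of 1.08 (n = 1478), those of 1000 to 2000 bp 1.04 (n = 2170), those of 2000 to 4000 bp 0.999 (n = 1072) and those of 4000 bp or more 0.964 (n = 182). ORFs under 500 bp stood at 1.05 (n = 751), and the longest class had 0.900 times the level of all ORFs under 1000 bp. High genes made up 19.2% of the shortest class and 16.5% of the next, and none of the 182 longest ORFs was high. Low genes were no less frequent at the ends of the range, at 18.0% of the shortest and 18.7% of the longest class, against 11.0% to 14.9% between. A like order was seen within the first 200 bp, where the median was 1.17 and 1.19 in the 2 shortest classes, 1.13 and 1.11 in the next and 1.04 in the longest. From 400 to 1000 bp it was 1.06 for ORFs of 500 to 1000 bp and 0.912 for those of 4000 bp or more. Over 5653 measured ORFs the Spearman correlation of level and length was −0.182, and that of level and listed nucleosomes per kb 0.0216. Genes are not independent points, since 9.70% of nucleosomes lay in more than 1 window.

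**Figure D4:**
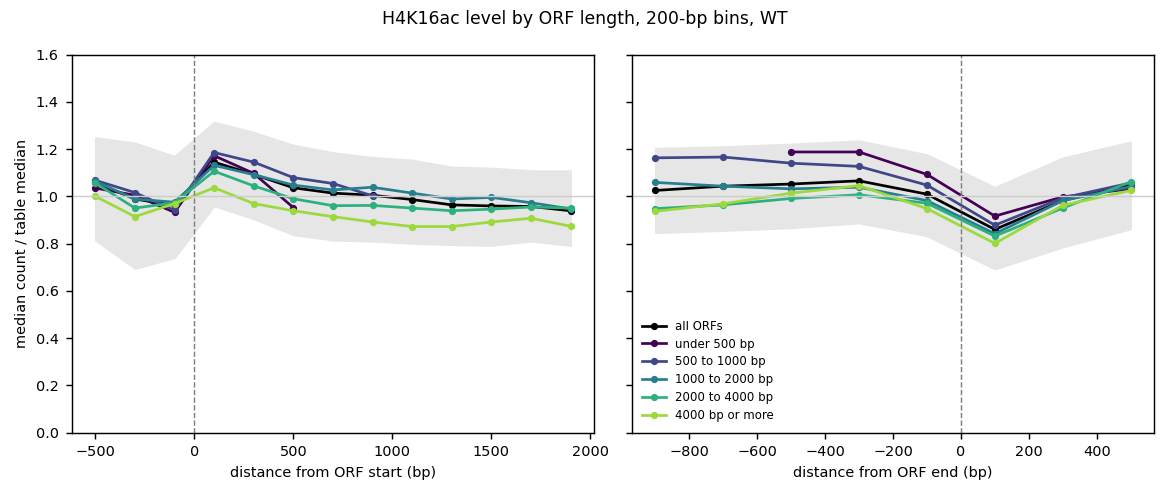
Median level of listed nucleosomes in 200-bp bins around ORF starts (left) and ORF ends (right) for 5 classes of ORF length; points sit at bin centres and the grey band spans the quartiles of all ORFs. From the start to 2000 bp inside the ORF, ORFs of 4000 bp or more are lowest, and the curves lie close together 400 to 600 bp past the end.

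Chromosomes differed little apart from chromosome III. Its nucleosomes had a median level of 1.13, and those of the other 15 chromosomes ranged from 0.980 on chromosomes IV and XII to 1.04 on chromosome VI, with a standard deviation of 0.0202 between chromosomes. The highest chromosome median was 1.16 times the lowest, and 1.06 times without the segment and the ADE2 nucleosomes. Of 156 measured genes on chromosome III, 65 (41.7%) were high, and 40 of these lay in the segment. The next largest shares of high genes were 26.7% on chromosome I and 19.1% on chromosome IX, and the smallest was 5.32% on chromosome XIII. Shorter chromosomes tended to have higher medians, with a Spearman correlation with length of −0.817 over the 15 chromosomes without III, given as a description of 1 table. Chromosome I also had fewer listed nucleosomes, 3.81 per kb, than the others, which had 4.85 to 5.28.

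**Figure D5:**
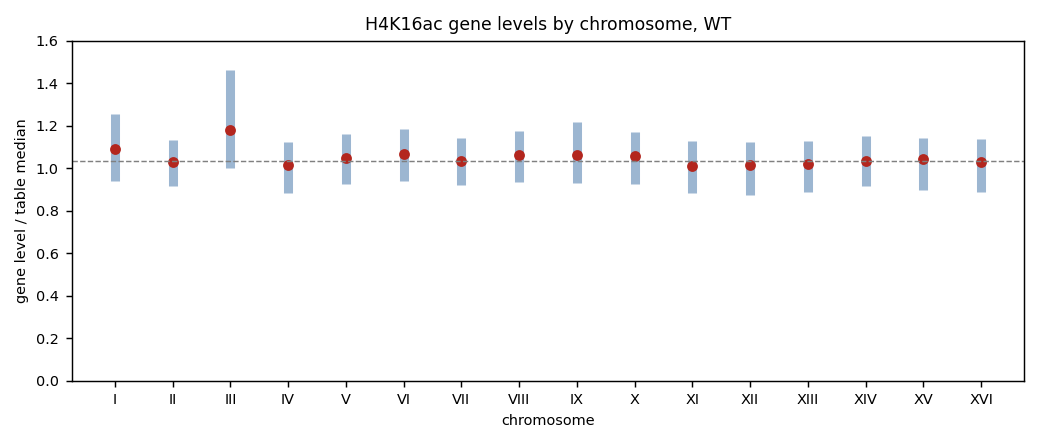
Median gene level (red points) and quartiles (blue bars) of measured genes on each of the 16 chromosomes; the dashed line is the median of all measured genes, 1.03. Chromosome III lies highest, with a median of 1.18 and an upper quartile of 1.46, and the other medians run from 1.01 to 1.09.

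Next to chromosome ends the level was lower. The 449 nucleosomes listed within 10 kb of an end had a median level of 0.792, with quartiles of 0.516 and 1.04, against 0.984 from 10 to 20 kb, 0.995 from 20 to 30 kb (0.986 without the segment) and 1.00 beyond. From 10 to 20 kb, a stretch of the same length, 1089 nucleosomes were listed, so the value within 10 kb rests on fewer listed positions and leaves much of the ends without a value. The lower quartile within 10 kb, 0.516, was far below that beyond 30 kb, 0.808, and the upper quartiles, 1.04 and 1.18, lay closer to each other. In 160-bp intervals alone, over their own median, the median level within 10 kb was 0.846.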

How the data were processed

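Per the labels, libraries from exponentially growing WT cells were made with a NuGEN kit, amplified by PCR and sequenced on a HiSeq 2000. The submitters' processing notes name FastQC, Bowtie and build R64, without versions. How nucleosomes were called, reads filtered and both libraries combined is not given in the sources used here. The authors deposited whole-number read counts per listed nucleosome, not normalized, with chromosome, start and end, and coordinates are given as in the table. The labels name no molecular identifiers, so reads may repeat a molecule and intervals cover counting error only.

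Gene positions came from a RefSeq gene table of R64, with strand read from the systematic name. Counts were divided by the table median. Alternatives that drop intervals from the table, or take counts per bp, used the median of the values kept. Genes used the mean and classes the median of listed nucleosomes. Computation used Python 3.11.15, pandas 2.3.3, numpy 2.4.6 and scipy 1.17.1, and the gene levels were tested on simulated counts. Genes and lists were chosen with earlier results of these data known. Named genes were the 10 highest and 10 lowest, the highest and lowest of each list, those with 1 of the 5 highest nucleosomes, and the 3 steepest drops and climbs along ORFs. Genes stated to be chosen after their values were seen, and YEF3, GAL1, GAL7, GAL10 and the second members of the ribosomal protein pairs, fall outside this rule. The single-column table allowed no count test. Alternatives changed the gene window, the summary, the intervals kept, the scaling and the minimum of 3 nucleosomes.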

Additional observations from a re-analysis of the deposited data

How the results depend on the processing

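No paired analysis was possible because both WT replicates share 1 count column, and for the same reason neither could be left out in turn. The cause of the shifts below was not tested, and settings that drop intervals from the table or take counts per bp were scaled by their own median. High genes numbered 601 as reported, 394 with non-overlapping intervals only, 366 with 160-bp intervals only and 400 with counts per bp, and low genes 817 as reported and 529 with non-overlapping intervals only, a setting that keeps 20530 intervals and so measures fewer genes. The level of the first 500 bp of ORFs over the level upstream was 1.11 as reported, 1.12 with means for medians, 1.10 with non-overlapping intervals, 1.07 with 160-bp intervals, 1.11 with counts per bp, 1.11 without 30 kb at each end and 1.23 with nucleosomes in a single gene window. ORFs of 4 kb or more over ORFs under 1 kb stood at 0.900 as reported, 0.879 with medians per gene, 0.845 in the ORF alone, 0.895 with non-overlapping intervals, 0.906 with 160-bp intervals, 0.932 with counts per bp, 0.892 with no minimum of nucleosomes, 0.876 in the first 500 bp and 0.901 without the chromosome III segment and the 2 ADE2 nucleosomes. The highest over the lowest chromosome was 1.16 as reported, 1.31 with means, 1.15 with non-overlapping and with 160-bp intervals, 1.13 with counts per bp, 1.15 without nucleosomes over 3 times the median, 1.18 without 30 kb at each end and 1.06 without the segment and the 2 ADE2 nucleosomes, a setting chosen after seeing the data. The level within 10 kb of ends was 0.792 as reported, 0.761 with means, 0.758 with non-overlapping intervals, 0.846 with 160-bp intervals, 0.825 with counts per bp and 0.776 scaled by chromosome. The share of long ORFs lower at the end was 60.1% as reported, 57.6% with non-overlapping intervals, 55.1% with 160-bp intervals and 53.2% with counts per bp.

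With non-overlapping intervals only, the median of the hexose transporters was 1.04 and that of the other RNA polymerase III genes 1.09, on the other side of 1, as was NOP58 at 1.01. Of 360 list medians under the 12 alternatives, 331 kept their place against the quartiles of all genes. The 60S and 40S ribosomal proteins, glycolysis and ribosome biogenesis lay below in all 11 that apply to lists. Of 925 values for named genes, 869 stayed high, low or between as reported. Some alternatives give no value for some results, such as chromosome scaling for the chromosome ratio.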

Other observations

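Genes known to be activated by the drug-resistance transcription factors Pdr1 and Pdr3 were looked up after PDR5, RPN4 and YOR1 were seen among the low genes. Of the 8 such genes other than these, 3 were low, against 14.0% of all genes, and none was high. All these genes were picked by hand after the gene levels were known, and PDR16 and SNQ2 also lie in the low runs above. The share is therefore a description and no independent support. PDR5 stood at 0.283, RPN4 at 0.289, PDR16 at 0.296, YOR1 at 0.357, SNQ2 at 0.513 and ICT1 at 0.718, and the others were RSB1 at 0.865, TPO1 at 0.963, PDR15 at 1.03, PDR10 at 1.09 and PDR3 at 1.11. PDR15 and PDR10, which encode transporters related to PDR5, were low upstream, at 0.376 and 0.403, and had 1.21 and 1.14 from 400 to 1000 bp inside the ORF.

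Neighbouring nucleosomes had similar counts. Outside the chromosome III segment the Spearman correlation was 0.561 between adjacent listed nucleosomes, at a median distance of 162 bp, 0.324 for those 3 apart, 0.0984 for those 10 apart and 0.0256 for those 50 apart. Overlapping intervals can share reads, and their part in these values was not tested.

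Measured ORFs known only by a systematic name had a median level of 1.03 (n = 536) and those with a gene name 1.04 (n = 5117). High genes made up 13.4% of the former and 10.1% of the latter, and low genes 15.7% and 13.2%.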
